A study of Rattus norvegicus with 4 samples.

Results

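The 79 gene rows described here code for the proteins of the cytosolic ribosome, or carry a symbol of the same form. They were the rows of the gene list whose symbol began with Rpl or Rps followed by a number (or was Rpsa or a stalk protein such as Rplp1), without the Rps6k kinases, and with at least 1000 UMIs (unique molecular identifiers, which count captured transcripts) in the whole matrix. They were 79 of 32623 rows and held 8.06% of all UMIs. The data were 1 pooled droplet matrix of dissociated hippocampus from wild-type rats, with 3' ends counted, deposited under 4 titles. NC was labelled a negative control, MCAO a unilateral occlusion of the middle cerebral artery, and DEPR and MD were both labelled as chronic stress. The design text gives male adult Sprague Dawley rats of 10 to 12 months in 2 groups of 10, both with the arterial occlusion and 1 also stressed, and hippocampi of 5 rats per group used. It names no unoperated group, so it does not cover all 4 titles. Whether rats were pooled in a library is not given in the sources used here.

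Barcodes ended in 1 of 4 suffixes, called sets 1 to 4 here, and nothing used here ties a set to a title. Each set is therefore given by itself or as a median with a range, and no difference between the titled samples was computed. Within a set, exact binomial intervals cover counting error only.

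Ribosomes are built from ribosomal RNA and a fixed roster of proteins, those of the large subunit (Rpl) and those of the small subunit (Rps). The messenger RNAs of these proteins are among the most abundant of a cell, and in mammals most of them begin with a C followed by a run of pyrimidines, the 5' terminal oligopyrimidine (TOP) motif, through which the mTOR kinase and the protein Larp1 set their translation. Resting lymphocytes are small cells in which ribosomal protein transcripts make up much of the messenger RNA. Oligodendrocytes are glia with abundant transcripts of myelin genes, whose share was not computed here.

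Of the 79 rows, 41 were large subunit proteins, 30 were small subunit proteins and 8 were other symbols of the same form. The 8 were the paralogs Rps27l, Rpl22l1, Rpl36al, Rps4y2, Rps10l1 and Rps18l1, the pseudogene Rps4x-ps9, and Rps19bp1, which is not a ribosomal protein but a partner of Rps19 and of the deacetylase Sirt1. Of 80 canonical proteins, 68 had a member row. A further 6 (Rplp2, Rpl7a, Rpl8, Rpl35a, Rpl38 and Rpl39) had too few UMIs, 3 (Rpl22, Rps13 and Rps26) had no row under that symbol, and 3 have symbols of another form, such as Fau and Rack1. The symbols Rpl21, Rpl32 and Rps27a had 2 member rows each, told apart here by the last 5 digits of the gene identifier. Ribosomal protein genes have many processed copies in rodents, so a low row can reflect how the counting split or assigned reads, and levels of different genes are not compared.

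Counts were spread over many members. Rplp1, an acidic protein of the ribosomal stalk, had 673931 UMIs, Rpl41, a very short basic peptide, had 517674, and Rps23, a protein of the decoding centre, had 452357. These 3 held 11.3% and the top 10 held 28.7% of member UMIs, and 54 members had over 100000. Just inside the minimum lay Rps18l1 with 1149 UMIs, Rps29 with 1242 and a row of Rpl21 (32803) with 1287. Just outside lay Rpl7l1, a paralog of Rpl7, with 791 and Rplp2 with 699. The paralogs Rpl3l, Rpl10l and Rpl39l were also below it, with 182, 119 and 16 UMIs.

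The start regions of the members are shown because they carry the sequence feature that the family is known for. A promoter window from RefSeq (GRCr8, 250 bases before to 50 after the start) was found for 58 of the 76 member symbols. A run of at least 7 C or T bases on the gene's strand, lying within 20 bases of the start, was found in 44 of 58 members (75.9%), in 17 of 63 mitochondrial ribosomal protein genes (26.98%) and in 23.7% of all 27457 promoters. Each line below gives 40 bases before and 20 after the annotated start on the gene's strand, with the longest run in capitals where it had at least 7 bases. Rplp1 and Rps23 are among the 3 members with most UMIs, Rps27 is called higher in T cells, Rpl31 in T cells and microglia, Rpl37a differs between sets, and Rps7 is below the called size in oligodendrocytes. The last 4 are Rps12 and the 3 rows that stand apart in the results.
Rplp1, chr8:71290853-71290912, minus strand: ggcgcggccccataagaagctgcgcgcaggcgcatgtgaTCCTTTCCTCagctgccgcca
Rps27, chr2:177964587-177964646, minus strand: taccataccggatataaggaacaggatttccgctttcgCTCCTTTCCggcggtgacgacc
Rps23, chr2:23814477-23814536, plus strand: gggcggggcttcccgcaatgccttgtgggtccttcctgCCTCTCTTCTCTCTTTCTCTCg
Rpl37a, chr9:81748051-81748110, plus strand: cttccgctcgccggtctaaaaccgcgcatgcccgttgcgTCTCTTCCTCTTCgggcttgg
Rpl31, chr9:49143071-49143130, plus strand: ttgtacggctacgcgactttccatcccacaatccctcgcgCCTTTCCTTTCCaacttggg
Rps7, chr6:50999426-50999485, minus strand: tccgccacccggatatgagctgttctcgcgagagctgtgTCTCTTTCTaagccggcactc
Rps4y2, chr4:183000873-183000932, plus strand: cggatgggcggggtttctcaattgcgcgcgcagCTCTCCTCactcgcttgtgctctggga
Rps12, chr1:23500035-23500094, plus strand: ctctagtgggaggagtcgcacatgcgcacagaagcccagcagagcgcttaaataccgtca
Rps19bp1, chr7:113693004-113693063, minus strand: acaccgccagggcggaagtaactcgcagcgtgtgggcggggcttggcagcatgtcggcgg
Rps27l, chr8:76443618-76443677, plus strand: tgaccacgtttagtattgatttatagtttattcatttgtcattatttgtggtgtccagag

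In these windows the run began between 2 bases before the start and the first base after it in 6 of the 7 genes shown with a run, and earlier in Rps4y2. Rps12, Rps19bp1 and Rps27l had no run longer than 3 in that stretch. Within 20 bases of the start, CTTTCC on the gene's strand was found in 27.6% of members and in 1.79% of all promoters. Other motifs were searched on both strands of the 300 bases. TCTCGCGA was found in 19.0% of members and 0.943% of all promoters, CCGGAAG, the core of ETS family sites, in 29.3% and 9.22%, and GGGCGG, the GC box, in 56.9% and 34.9%. AAGATGGC, part of the YY1 site, was found in 6.90% of members, 25.4% of mitochondrial ribosomal protein genes and 3.44% of all promoters, and TATAAA in 12.1% of members and 14.3% of all. A match of letters is a description of the window and does not show binding, and an annotated start can lie some bases from the start used in these cells.

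Cells were typed by fixed marker lists that hold no ribosomal protein gene, each cell needing at least 3 found markers and a share of its list at least 2 times that of any other list. Of 27937 kept cells, 16708 were typed, which was 39.9%, 44.8%, 80.6% and 76.2% of sets 1 to 4. In sets 1 and 2 the red cell list was the best list of 1655 and 1760 untyped cells, against 43 and 89 in sets 3 and 4, so more cells of sets 1 and 2 lay outside the types. In both T cells and oligodendrocytes, the summed markers of microglia and of endothelial cells took at most 0.00677% of UMIs in any set. Oligodendrocyte markers took up to 0.0136% in T cells. Red cell markers took up to 0.0311% in T cells and 0.0349% in oligodendrocytes, both in sets 1 and 2, and at most 0.00410% in sets 3 and 4. The part of these other-type UMIs in the shares below was not tested. No neuron or astrocyte type reached 50 cells. Of the 31542 barcode sequences, 96 occurred in more than 1 set.

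The share of UMIs taken by the 79 rows differed several-fold between cell types. T cells were highest, with 21.2%, 20.01%, 24.9% and 23.1% in sets 1 to 4. B cells followed with a median of 11.5% (9.44% to 14.4%), microglia with 9.74% (8.61% to 12.1%) and endothelial cells, which line the vessels, with 8.73% (8.29% to 8.97%). Border macrophages had 7.45% (5.18% to 10.2%), smooth muscle cells 7.38% (6.71% to 8.10%) and oligodendrocytes 5.36% (5.14% to 5.65%). Ependymal cells, the ciliated lining of the ventricles, had 4.81% (3.68% to 4.95%) and pericytes 4.58% (4.30% to 5.17%). Red cells had 4.65% and 3.67% in sets 1 and 2, and neutrophils 1.62% and 3.46% in sets 2 and 4, the sets with at least 10 such cells. Among neighbours in this order, the ranges over sets did not overlap between T and B cells, smooth muscle cells and oligodendrocytes, oligodendrocytes and ependymal cells, or red cells and neutrophils. All other neighbours overlapped. Ependymal cells numbered 10 to 20 per set, and their place below oligodendrocytes depended on typing and depth in set 4. By cluster, ependymal cells of set 4 had 5.29% and oligodendrocytes 5.12%. With cells thinned to equal depth, they had 5.69% and 5.23% in set 4. In sets 1, 2 and 3 oligodendrocytes were higher in both readings, and without the red cell list in every set.

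**Figure D1:**
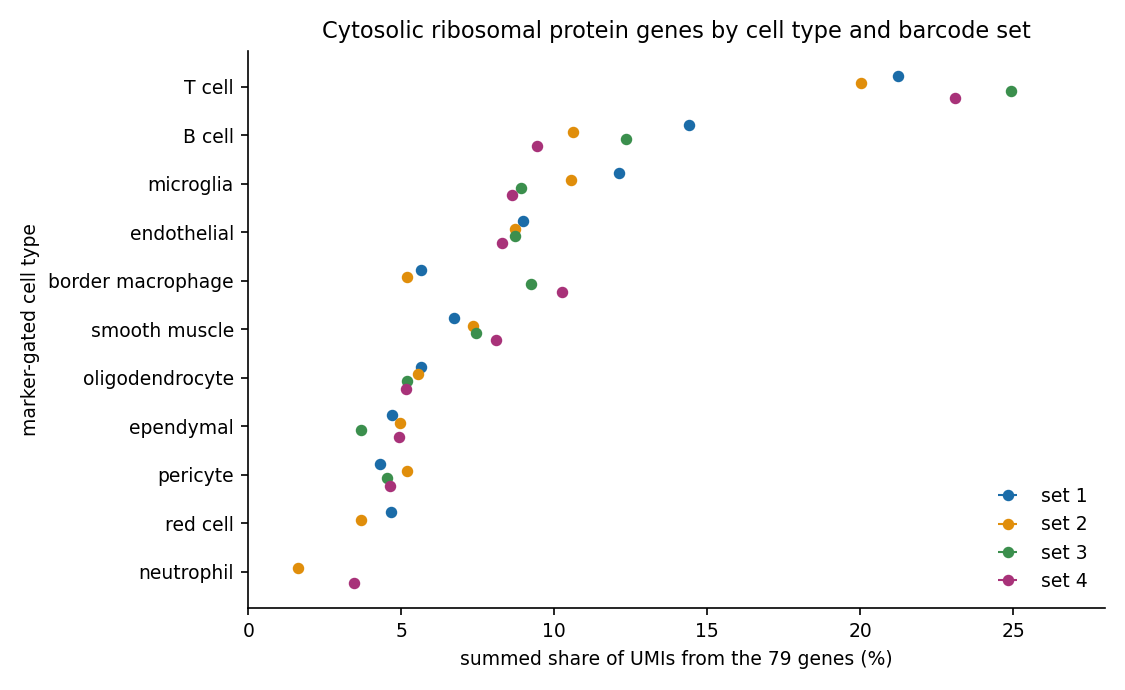
Summed share of UMIs from the 79 rows (percent, x axis) in each marker-gated cell type (y axis), 1 point per barcode set with at least 10 cells of the type, and exact binomial 95% intervals that are mostly smaller than the points. The 4 T cell points lie between 20.01% and 24.9%, above every other type, and the 4 oligodendrocyte points between 5.14% and 5.65%.

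Large subunit rows held more UMIs than small subunit rows in every type read, and the balance differed between types. The large subunit rows together had 1.23 to 1.27 times the UMIs of the small subunit rows in T cells, 1.25 to 1.30 times in microglia, 1.25 to 1.26 times in endothelial cells and 1.29 to 1.33 times in oligodendrocytes. Border macrophages had 1.29 to 1.43 times and pericytes 1.33 to 1.44 times. Ependymal cells had the highest ratio, 1.46 to 1.54.

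The B cell gate was mixed for these genes. The interquartile range of its cells' member shares was 5.68% to 29.2% in set 3 and 4.85% to 25.6% in set 4. The level also moved with typing and depth. By cluster, B cells had 8.37%, 7.42%, 9.08% and 9.38% in sets 1 to 4, below the microglia of sets 1 and 2 and above those of sets 3 and 4. Without the red cell list they had 9.35%, 8.96%, 11.9% and 8.67%, with the same order against microglia. With each cell thinned to 1000 UMIs they had 17.6%, 11.6%, 19.5% and 14.8%, above microglia in every set. The place of B cells above microglia therefore depended on how cells were typed.

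Depth moved with the share inside the types. In T cells the share rose from the shallowest to the deepest of 3 equal parts of the cells in every set, for instance from 18.7% to 29.7% in set 3 and from 19.3% to 21.8% in set 1. It also rose in microglia (9.84% to 13.4% in set 1, 7.33% to 9.54% in set 4) and in endothelial cells (6.74% to 9.61% in set 1, 5.76% to 8.88% in set 4). In oligodendrocytes it fell in every set, from 6.48% to 5.13% in set 1 and from 5.66% to 4.90% in set 4. With each cell thinned to 1000 UMIs, the shares were 20.9%, 19.5%, 23.0% and 21.9% in T cells, 11.5%, 10.3%, 8.70% and 8.24% in microglia, and 5.90%, 5.74%, 5.42% and 5.23% in oligodendrocytes. Thinning left out 3 T cells, 22 microglia and 130 oligodendrocytes in all.

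**Figure D2:**
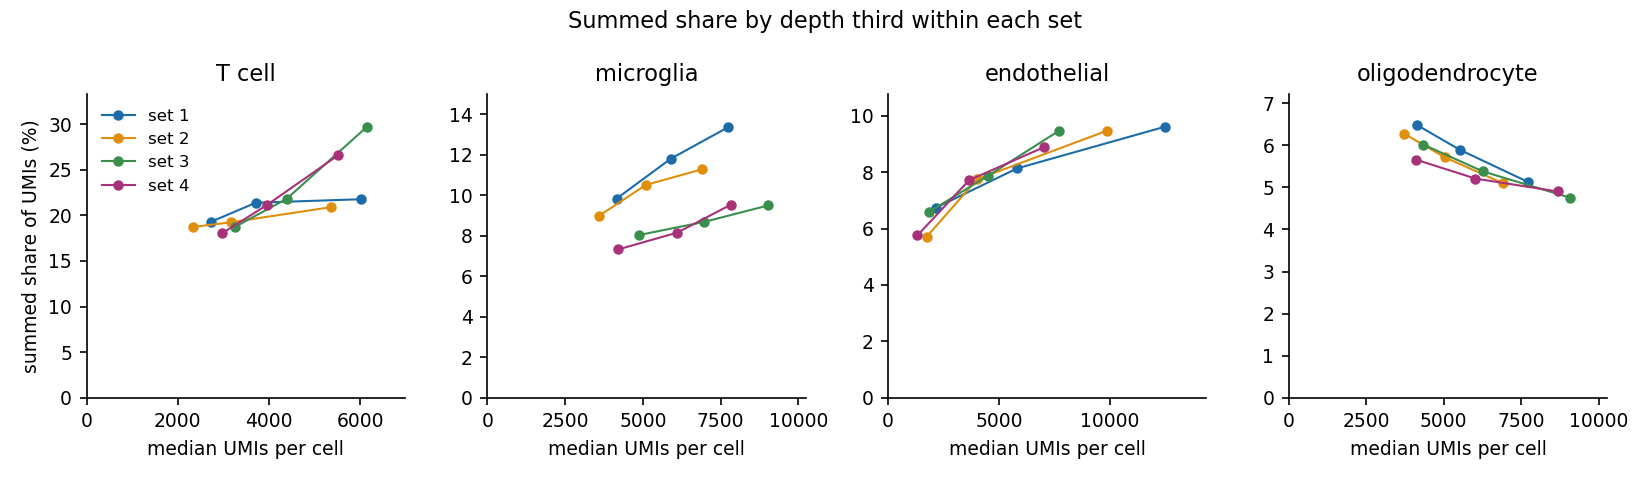
Summed share of UMIs (percent, y axis) against the median UMIs per cell (x axis) of the shallowest, middle and deepest of 3 equal parts of the cells, 1 line per set in each of 4 cell types. Lines rise in T cells, microglia and endothelial cells and fall in oligodendrocytes.

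Single members were then compared between a type and all other typed cells of the same set, as the ratio of counts per 1e+06 UMIs (CPM). A row was called when the ratio was at least 1.5 in 1 direction in every set, with an interval that left out 1. This is a rule of size, with no test behind it, since the sets are tied to no group of the study. All 79 members and 11488 rows in all were measured.

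In T cells, which carry the antigen receptor complex Cd3, nearly the whole family was higher. Of the 79 members, 75 were called higher, where 8.64% of all rows were, and 0 lower, where 15.6% of all rows were. All 41 large subunit rows and 29 of 30 small subunit rows were called; the other was the low row of Rps29, at a log2 ratio of 1.46. The median log2 ratio was 1.61 over members and -0.51 over all measured rows, and the summed share gave 1.46, 1.54, 1.81 and 1.70 in sets 1 to 4. T cells had the highest median CPM of the 9 types read in all sets for 76 of the 79 members. The exceptions were Rps4y2, Rps19bp1 and Rps27l, 3 of the rows that are not canonical ribosomal proteins.

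Rps18, which sits on the head of the small subunit, had the highest log2 ratio in T cells, 2.20. Its level was 6473, 6200, 7006 and 6787 CPM in T cells of sets 1 to 4, against 1728, 1473, 1260 and 1350 CPM in other typed cells. Rps27, a zinc finger protein of the small subunit, had 5669, 4964, 8664 and 7495 CPM against 1664, 1178, 1678 and 1555, a log2 ratio of 2.17. For both genes every T cell value lay above every value of the other cells. The low row of Rpl21 (32803) had 26.4, 23.3, 31.6 and 29.8 CPM against 6.42, 3.88, 7.33 and 6.21. The paralog row Rps18l1 had a log2 ratio of 2.10, Rps19, the protein most often mutated in Diamond-Blackfan anaemia, 2.04, and Rps10 1.94. Rps18l1 is a near copy of Rps18, and its reads cannot be told apart from misassigned Rps18 reads here.

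Canonical members with the smallest ratios in T cells were still called. Rpl13a, known to leave the ribosome in activated monocytes to silence inflammatory messages, had 307, 250, 309 and 222 CPM against 164, 138, 128 and 121, a log2 ratio of 0.90. Rps9 had a log2 ratio of 1.13, Rpl18 of 1.18, Rpl3 of 1.26 and Rpl37 of 1.26. Rps27l, the paralog of Rps27 that p53 induces, differed from it: its level was 248, 169, 118 and 148 CPM in T cells and 121, 130, 133 and 143 in other cells, so it was higher in 3 sets and lower in set 3. Rpl22l1, the paralog of Rpl22, had a log2 ratio of 1.35, and Rpl36al, the paralog of Rpl36a, had 1.67 beside 1.84 for Rpl36a itself.

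**Figure D3:**
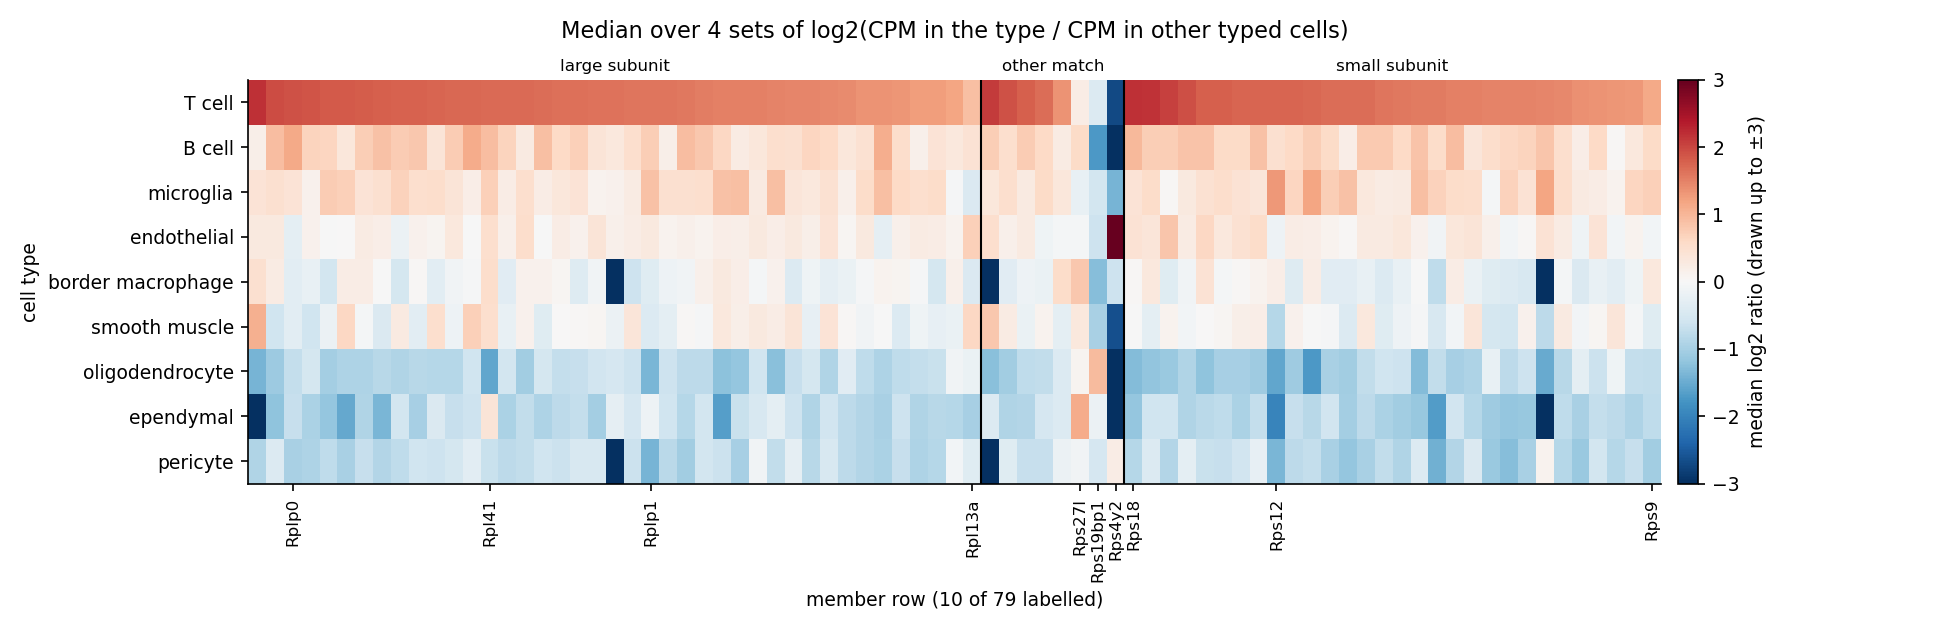
Median over the 4 sets of the log2 ratio of CPM in a cell type (rows) over all other typed cells, for each of the 79 member rows (columns, by class and then by T cell value, 10 of them labelled), with colours ending at 3 in both directions. The T cell row is red except at Rps19bp1 and Rps4y2 and near white at Rps27l, and the oligodendrocyte row is blue or near white except at Rps19bp1.

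Oligodendrocytes, the myelin-forming glia, were low for most of the family. Of 79 members, 54 were called lower, where 27.6% of all rows were, and 1 was called higher, where 26.1% of all rows were. The called rows were 27 of 41 large subunit, 23 of 30 small subunit and 4 of 8 other rows, and 77 members were lower in every set by any amount (39.1% of all rows). The median log2 ratio was -0.80 over members and 0.10 over all measured rows, and the summed share gave -0.81, -0.82, -0.90 and -0.87 in sets 1 to 4. The count of 54 fell to 26 with the other types weighted equally and to 34 with thinned cells.

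Rps12, at the beak of the small subunit, had 756, 803, 707 and 757 CPM against 1918, 2225, 2291 and 2369, a log2 ratio of -1.56. Rpl41 had 1252, 1166, 1293 and 1308 CPM against 3647, 3423, 3896 and 3745, a log2 ratio of -1.55. In both genes every oligodendrocyte value lay below every value of the other cells. Rplp1 had a log2 ratio of -1.37. Rps29 and the low Rpl21 (32803) row, with log2 ratios of -1.52 and -1.39, rested on levels under 7 CPM in oligodendrocytes.

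Other canonical members hardly differed. Rpl18 had 784, 842, 834 and 890 CPM in oligodendrocytes and 852, 890, 957 and 947 in other cells, a log2 ratio of -0.10. Rpl13a (-0.21), Rpsa (-0.23), the laminin receptor protein, and Rps7 (-0.30) were likewise below the called size in log2 ratio. As a share of member UMIs rather than of all UMIs, 7 of 79 rows (8.86% of members) were called in either direction. That scale covers members only, so no share over all rows stands beside it. Among the 7, Rpl18 was called higher in oligodendrocytes, with 1.39% to 1.73% of member UMIs, as were Rps27l and Rps19bp1. Rpl41 was called lower on that scale, with 2.11% to 2.54%, as was Rps4y2.

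Rps19bp1 was the 1 member higher in oligodendrocytes, with 85.2, 77.6, 86.9 and 74.5 CPM against 35.0, 39.9, 45.5 and 38.6, a log2 ratio of 0.95. Its ratio was below 1 in every set in microglia (log2 -0.56), endothelial cells (-0.62) and T cells (-0.41). Oligodendrocytes are much of the cells that these types are compared with, so the comparisons share values. Its level was 44.1, 44.5, 44.4 and 41.5 CPM in microglia of sets 1 to 4. It was 36.6, 39.4, 51.3 and 38.4 CPM in endothelial cells and 32.9, 48.7, 52.3 and 39.1 CPM in T cells. In oligodendrocytes, microglia, endothelial cells and T cells its log2 ratio thus had the opposite sign to the median of the 79 members.

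Microglia, the resident macrophages of the brain, were above the other typed cells for much of the family, by less than T cells were. Of 79 members, 8 were called higher, where 12.4% of all rows were, and 0 lower, where 36.9% of all rows were. By any amount, 63 members were higher in every set (22.1% of all rows). The median log2 ratio was 0.46 over members and -0.63 over all measured rows. With TMM scaling, which centres the bulk of genes, the median of all rows was -0.19, 53 members were called higher, and the share of higher calls among all called rows was 40.3% in place of 25.2%. Without set 4, 16 members were called. The count was 4 by cluster, 2 with the stricter cell filter, 2 without mitochondrial UMIs, 2 with thinned cells and 1 with the other types weighted equally, so it rests on the processing.

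The 8 called members included Rps12, Rps29, Rpl31, Rplp1, Rps23, Rpl35 and Rpl12. Rps12 led, with 3017, 2778, 2533 and 2618 CPM in microglia and 1150, 990, 1099 and 1226 CPM in other typed cells, a log2 ratio of 1.30. Rps12 was also among the 3 lowest rows of oligodendrocytes, and since oligodendrocytes are much of the cells that microglia are compared with, the comparisons share values. As shares of member UMIs, Rps12 took 2.49% to 3.04% in microglia and 1.55% to 1.70% in the other cells.

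Of the other leading rows, Rpl10, a late-joining protein needed before subunits can pair, had a log2 ratio of 0.91. Rps6, the substrate of the S6 kinases, also had 0.91, and Rpl26, at the exit of the nascent chain, 0.90; these 3 missed the size in set 4. Rplp1 had 6694, 5465, 4419 and 4263 CPM in microglia against 3287, 2411, 2624 and 2757. The lowest canonical rows were Rpl13a, with 123, 121, 105 and 105 CPM against 175, 146, 147 and 135 (log2 ratio -0.42), Rpsa (-0.06) and Rpl18 (-0.04), with Rps27l at -0.22. Rpl13a was lower in every set, while Rpsa and Rpl18 were higher in sets 1 and 2 and lower in sets 3 and 4.

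Endothelial cells differed little from the rest as a whole. The summed share gave log2 ratios of 0.21, 0.30, 0.22 and 0.12 in sets 1 to 4, and this direction turned when the other types were weighted equally (-0.017) or when cells were typed without the red cell list (-0.042). Of 79 members, 2 were called higher, where 14.9% of all rows were, and 0 lower, where 18.4% of all rows were. Rps19 had 190, 216, 191 and 163 CPM against 102, 103, 111 and 101, a log2 ratio of 0.84. Rpl13a (0.72), Rps28 (0.62), Rps15 (0.55), Rpl37a (0.54) and Rpl41 (0.50) in log2 ratio were higher in every set but were not called, each missing the size in at least 1 set. Rplp0, the base of the stalk, had the lowest canonical ratio, with 1640, 1634, 1355 and 1314 CPM against 2041, 1965, 1621 and 1686, a log2 ratio of -0.29. Rpl5, which carries the small 5S RNA into the large subunit, had -0.19, and Rpl10 and Rps12 had -0.27 and -0.14 with both signs over sets.

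Rps4y2 stood apart from every other member. It had 90.2, 75.5, 171 and 178 CPM in endothelial cells of sets 1 to 4 and 2.86, 2.75, 6.63 and 7.07 CPM in other typed cells, a log2 ratio of 4.74. It was low in oligodendrocytes (0.721, 0.738, 1.82 and 1.75 CPM), T cells (4.39, 4.23, 1.22 and 4.26 CPM) and microglia (4.85, 8.43, 13.4 and 13.1 CPM). Rps4x, the canonical gene of this protein, had 1510, 1573, 1196 and 1138 CPM in endothelial cells and a log2 ratio of 0.22, so the 2 rows did not follow each other. In the RefSeq annotation of GRCr8, Rps4y2 lies on chromosome 4 and overlaps Tmtc1, a mannosyltransferase gene. Tmtc1 itself had 8.22, 6.68, 4.37 and 4.53 CPM in endothelial cells and 0.168, 0.162, 0.167 and 0.0887 CPM in other cells. The build of the counts was another one, and how reads of overlapping genes were assigned is not given in the sources used here, so the reads of this row cannot be told apart from those of its neighbour.

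**Figure D4:**
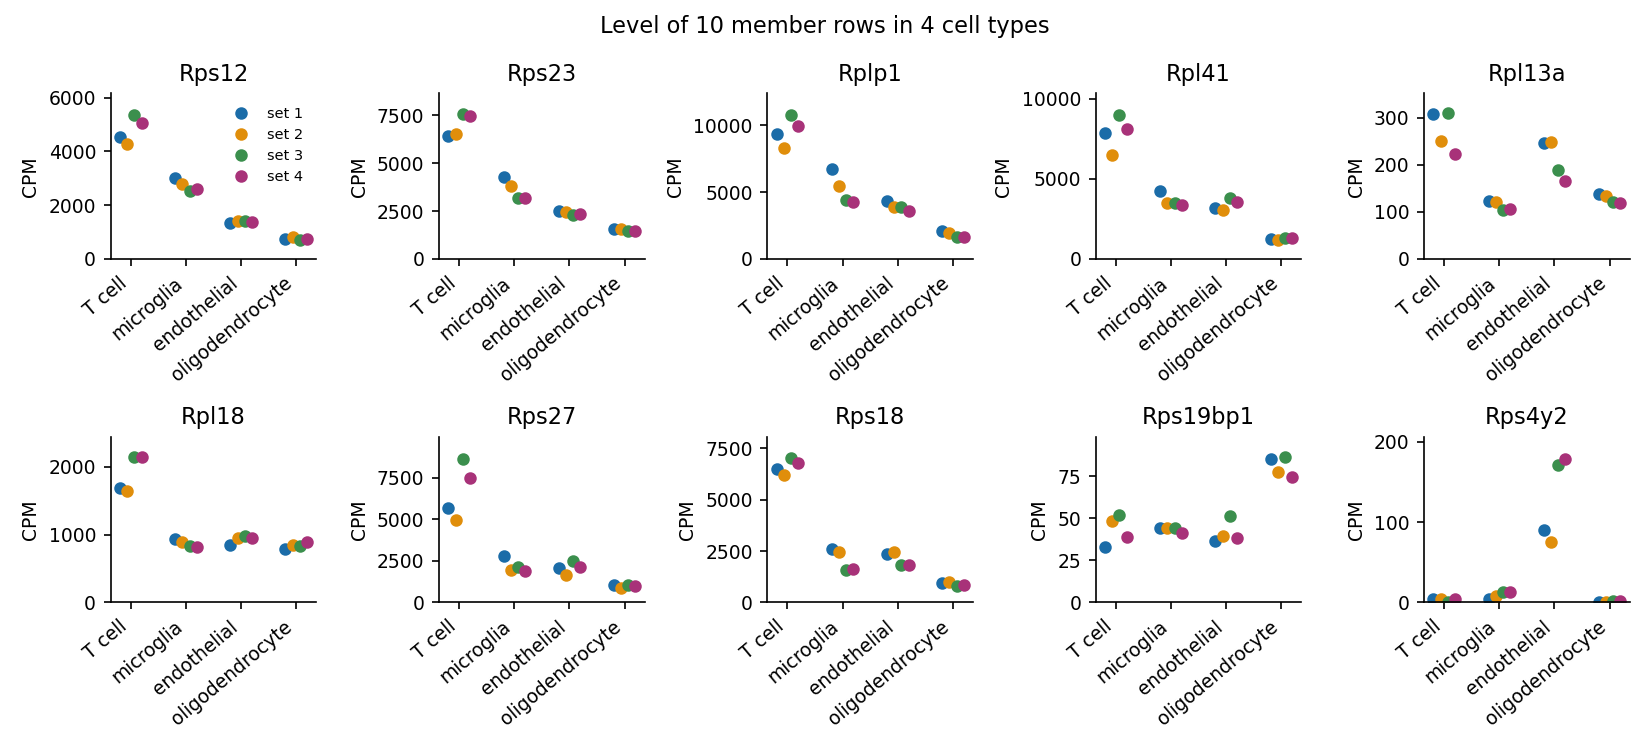
Level in CPM (y axis, from 0) of 10 member rows in T cells, microglia, endothelial cells and oligodendrocytes, 1 point per barcode set. Rps12 falls in that order of types, Rpl13a and Rpl18 differ little between microglia and oligodendrocytes, Rps19bp1 is highest in oligodendrocytes and Rps4y2 in endothelial cells.

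The remaining types had fewer cells. In pericytes, the contractile cells of capillaries, 24 of 79 members were called lower (5.60% of all rows) and 0 higher (7.35%). In ependymal cells 27 were called lower (4.76% of all rows) and 0 higher (7.77%). In B cells 7 were called higher (1.47% of all rows) and 1 lower (28.9%). Border macrophages had 1 called higher (1.85%) and 0 lower (5.81%), and smooth muscle cells 0 called higher (6.91%) and 1 lower (7.39%). In neutrophils 63 were called lower (6.21%) and 0 higher (3.53%), and in red cells 61 lower (56.7%) and 0 higher (1.11%), both over 2 sets. In red cells, where 45.7% to 47.9% of UMIs were haemoglobin, most rows of any kind were lower. Most rows were also lower in neutrophils. By any amount, 75 of 79 members and 8540 of 11899 measured rows were lower in both sets. These sets had 23 and 24 neutrophils, so rows with few UMIs could miss the interval rule that abundant members met.

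Other genes of translation were read from fixed lists. Of 19 other TOP messages and elongation factors, among them ribosomal proteins such as Rack1 and Fau that the symbol rule left out, 16 were called higher in T cells, where 8.64% of all rows were (median log2 ratio 1.22, all rows -0.51). Among them, Npm1, a nucleolar chaperone, had 1291, 1079, 1294 and 1297 CPM against 355, 361, 340 and 373, and Tpt1, whose message is a classical TOP mRNA, had a log2 ratio of 1.68. In oligodendrocytes 6 of the 19 were called lower and 0 higher (median -0.44, all rows 0.10), and the lower share was near the 27.6% of all rows. Pabpc1, the poly(A) binding protein, had 72.4, 71.1, 55.9 and 66.9 CPM there against 230, 293, 259 and 288, and Eef1a1, the factor that brings aminoacyl-tRNA to the ribosome, had a log2 ratio of -1.43. In microglia 2 of the 19, Pabpc1 (1.73) and Eef1a1 (1.21) in log2 ratio, were called higher, a share no larger than the 12.4% of all rows.

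Mitochondrial ribosomal protein genes had another order of cell types. Of 74 measured, 45 were called higher in oligodendrocytes, where 26.1% of all rows were, and 0 lower (median log2 ratio 0.91, all rows 0.10). In microglia 45 were called lower, where 36.9% of all rows were, and 0 higher (median -0.98, all rows -0.63). Mrpl48 had 153, 165, 212 and 205 CPM in oligodendrocytes against 31.8, 31.4, 35.5 and 30.9. In T cells 2 were called higher and 3 lower, both shares below those of all rows (8.64% and 15.6%). As a summed share of UMIs, they took 0.525% in oligodendrocytes (0.497% to 0.549%), 0.219% in microglia (0.208% to 0.230%) and 0.348% in T cells (0.310% to 0.366%). Cytosolic over mitochondrial ribosomal protein UMIs gave a ratio of 63.9 in T cells (54.9 to 80.3), 44.7 in microglia (40.9 to 52.6) and 10.2 in oligodendrocytes (9.37 to 11.4). The ranges of this ratio did not overlap between T cells, microglia and oligodendrocytes.

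A minority of genes of ribosome assembly and initiation were called. Of 23 measured assembly genes, 3 were higher and 0 lower in T cells (8.64% and 15.6% of all rows), among them Gnl3 (0.93) and Ncl (0.84), both nucleolar, in log2 ratio. In oligodendrocytes 4 were higher and 0 lower, a higher share below the 26.1% of all rows. Among the 4 were Nop10 (1.24), a component of H/ACA particles, and Sbds (1.20), which matures the large subunit. Of 19 initiation factors, 1 was higher and 1 lower in T cells (Eif2s3 at 0.79 and Eif4h at -0.67) and 1 higher in oligodendrocytes (Eif4h, 0.88). Of 20 measured mTOR branch genes, oligodendrocytes had 7 lower and 2 higher, where 27.6% and 26.1% of all rows were. Eif4ebp1, an inhibitor of cap binding that mTOR inactivates, had 2.16, 4.10, 2.62 and 2.66 CPM there against 57.9, 45.2, 36.8 and 29.9, and in endothelial cells 88.0, 98.9, 90.9 and 76.6 against 13.6, 13.9, 11.1 and 11.1. Myc, a transcription factor known to drive ribosome production, had 40.9, 34.2, 137 and 142 CPM in microglia against 17.2, 12.1, 13.9 and 15.04.

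Within a type, the sets differed in the summed share. In microglia sets 1 and 2 (12.1% and 10.6%) lay above sets 3 and 4 (8.92% and 8.61%). That order was kept with other typings, with 11.2%, 10.1%, 8.93% and 8.70% by cluster and 11.7%, 10.4%, 8.89% and 8.63% without the red cell list. By cluster, different clusters named microglia held the cells of these sets. Clusters 0 and 2 held 961 and 1281 cells of set 1 and 1318 and 2309 of set 2. They held 109 and 23 cells of set 3 and 141 and 51 of set 4. Clusters 1 and 3 held 620 and 907 cells of set 3 and 1091 and 1859 of set 4. They held 16 and 15 cells of set 1 and 57 and 31 of set 2. Clusters 0 and 2 were named on 3 of 8 microglia markers each, and clusters 1 and 3 on 6 of 8. These counts are of all cells in a cluster, while the gate typed 403, 760, 1260 and 2245 microglia in sets 1 to 4. Oligodendrocytes split likewise between clusters 5 and 8, and endothelial cells between clusters 10 and 18. For 59 of the 79 members both of sets 1 and 2 were above both of sets 3 and 4 in microglia (19.8% of all rows), and for 1 both were below (46.3%). Haemoglobin in these cells took 0.0270% and 0.0211% of UMIs in sets 1 and 2 and 0.00326% and 0.00420% in sets 3 and 4, and mitochondrial UMIs 9.16%, 8.21%, 7.26% and 5.56%. All 9 oligodendrocyte markers were found in the microglia of each set, at a summed 0.0159%, 0.0161%, 0.0203% and 0.0215% of UMIs. The part of these measures in the difference was not tested.

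The opposite order was seen in border macrophages, which live at the vessels and meninges. Their shares were 5.65%, 5.18%, 9.25% and 10.2%, and 63 of 68 measured members had sets 1 and 2 below sets 3 and 4 (52.9% of all rows). Sets 1 to 3 had 22 to 28 of these cells each. Mitochondrial UMIs took 19.0%, 17.1%, 14.2% and 10.2% in border macrophages of sets 1 to 4. The median member share per cell was 5.23%, 3.37%, 6.21% and 7.99%. The part of these measures in the difference was not tested. In T cells 45 of 75 measured members had sets 1 and 2 below (25.8%) and 7 above (26.7%). In oligodendrocytes 33 of 78 had sets 1 and 2 above (19.6%), with shares of 5.65%, 5.53%, 5.19% and 5.14%. Rows whose highest and lowest set differed by at least 1.5 times were 33 of 79 members in microglia (35.4% of all rows), 17 of 75 in T cells (36.1%), 12 of 78 in oligodendrocytes (24.9%) and 16 of 76 in endothelial cells (35.8%). By that measure the members were below the background in T cells, oligodendrocytes and endothelial cells, and somewhat above it in microglia.

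A few members differed between sets in the same way in every type. As a share of member UMIs, Rpl37, Rpl37a, Rps10, Rps24, Rps25, Rps27 and Rps28 were lowest in set 2 in all 9 cell types read in all sets. Rps2, Rpl36a and the row Rpl32 (32605) were highest in set 2 in all 9. The other row of that symbol, Rpl32 (10746), had 44614 UMIs against 11847 and was lowest in set 2 in 7 of the 9 types. Rpl36al, the paralog of Rpl36a, was lowest in set 2 in 8 of the 9. Sister rows thus moved in opposite directions, and how reads were split between them was not tested. For Rpl29, Rpl9, Rps29 and Rps4x-ps9, no set was lower than set 1 in any of the 9. Set 1 was level with other sets at 0 CPM for some low rows, such as Rpl9 in pericytes and Rps29 in ependymal cells. No minimum of UMIs was applied to this order. Rpl32 (10746) and Rpl36al are given beside their sister rows. The other members named here were picked for that pattern, and all were chosen after their values were seen. Cell types of a set share its library, so the 9 types are not independent.

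Rpl37, a zinc-binding protein of the large subunit, had 619, 248, 511 and 317 CPM in microglia of sets 1 to 4. It had 317, 133, 316 and 201 CPM in oligodendrocytes, 519, 193, 498 and 310 CPM in endothelial cells and 962, 345, 1142 and 657 CPM in T cells. In each of these types set 2 was lowest and set 4 next. Rps25, which some viral internal ribosome entry sites need, had 533, 250, 519 and 403 CPM in microglia. It had 256, 137, 295 and 240 CPM in oligodendrocytes and 729, 400, 1012 and 781 CPM in T cells. The highest over lowest CPM was 2.50 for Rpl37 (95% interval 2.30 to 2.70) and 2.13 for Rps25 (1.96 to 2.31) in microglia. Rps29 went the other way, with 5.66, 23.8, 7.46 and 6.56 CPM in microglia and 1.30, 6.39, 2.06 and 2.40 in oligodendrocytes, highest in set 2 in both.

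Rps10 had 39.2, 18.8, 45.5 and 26.5 CPM in microglia, again with set 2 lowest. The row Rpl32 (32605) had 69.2, 123, 64.8 and 55.9 CPM there, with set 2 highest. The larger row Rpl32 (10746) had 409, 244, 340 and 228 CPM there, with sets 2 and 4 lowest. As a share of member UMIs in microglia, Rpl37a took 2.26% in set 2 and 3.28% in set 3, and Rps24 0.934% and 1.28%. These differences in set 2 were present in T cells, microglia, endothelial cells and oligodendrocytes alike, whereas the summed share of set 2 was the lowest of the 4 sets in T cells only among these 4 types. Rps4y2 in endothelial cells was lower in sets 1 and 2 than in sets 3 and 4, 2.36 times between the extremes (95% interval 1.94 to 2.90).

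**Figure D5:**
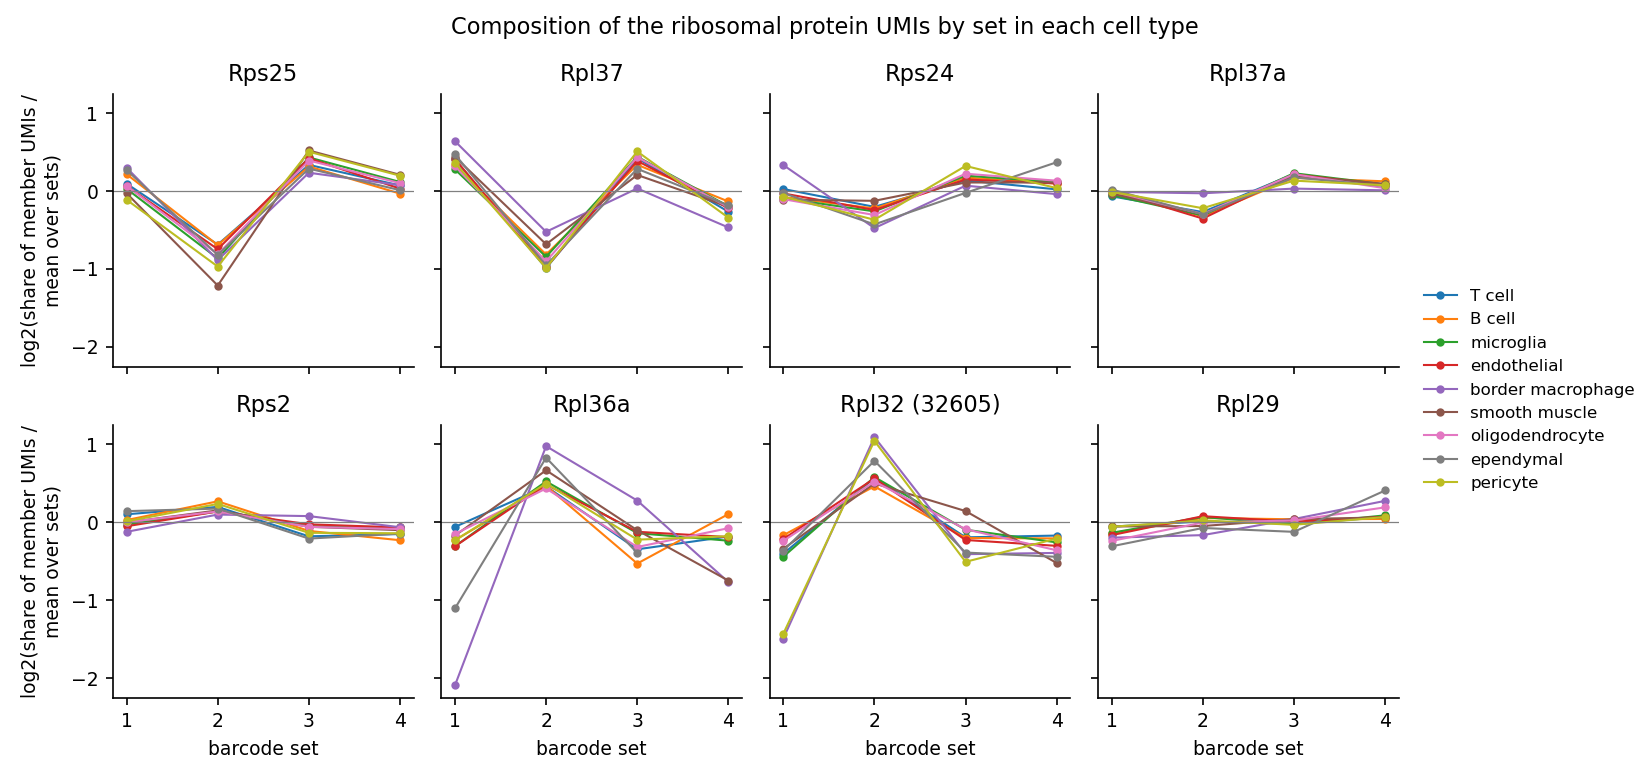
Share of member UMIs of 8 members in each barcode set (x axis) relative to the mean over sets (log2, y axis), 1 line per cell type; a set with no UMI of the gene has no point. Rps25, Rpl37, Rps24 and Rpl37a dip in set 2 and Rps2, Rpl36a and Rpl32 (32605) peak there in all types drawn, while Rpl29 is lowest in set 1.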

How the data were processed

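The authors deposited 1 matrix of UMI counts (whole numbers, not normalised) with its gene and barcode lists. Per the file headers it was written by Cell Ranger 5.0.0, and the submitters' processing notes name Cell Ranger, STAR and the build Rnor_6.0. Per the labels' protocols, the tissue was digested enzymatically, erythrocytes were lysed, and libraries counted 3' ends. For annotation and cell calling, settings were not given in the sources used. Set totals were 43640627, 46669201, 36242408 and 54295520 counts.

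Cells had at least 500 UMIs, 300 genes and at most 20% mitochondrial UMIs. Doublets called by Scrublet (scanpy 1.11.5, expected share 6%) were removed: 211, 268, 129 and 334. Cells were typed by 17 marker lists (131 of 139 entries matched). No type is described under 50 cells, nor a set under 10. UMIs were summed per type and set. A row was measured with at least 20 UMIs on both sides together in every set (between sets, 50). Ratio intervals were exact conditional binomial, 95%. Calling was tried on simulated sums of the endothelial comparison only. Changes larger than the called size were planted in rows with many UMIs, with counting error alone. That trial does not cover variation between cells or libraries, small types or low rows. The members and lists were chosen with earlier results of these data known. Named members are the 6 highest and 6 lowest by ratio and by share of member UMIs in each of 4 types, the top 3 by UMIs, those around the minimum, paralog pairs, the 5 that differed most between sets, and up to 4 genes per list. Others are said to be chosen after their values were seen. Alternatives changed the cell filter, doublets, typing, totals, weighting, depth, scaling (TMM, edgeR 4.0.16 on R 4.3.3), fold, UMI minimum and sets.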

Additional observations from a re-analysis of the deposited data

Results flagged for a closer look

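The cells that no marker list typed were used in no comparison, and they held a clear signal from these genes. The 79 rows took 9.40% of their UMIs in set 1, 9.08% in set 2, 8.91% in set 3 and 9.10% in set 4. There were 3815, 4403, 1005 and 2006 such cells, and haemoglobin took 4.31%, 2.34%, 0.845% and 1.06% of their UMIs. Their shares lay between those of microglia and oligodendrocytes of the same set in sets 1, 2 and 3, and above both in set 4.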

How the results depend on the processing

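No paired analysis of the titled samples was possible because no barcode set can be tied to a title. Cell types were compared within each set, as values with no test, since sets with no known group were not treated as replicates. Values below are median log2 ratios of the summed share, then counts of members called. Typing without the red cell list was chosen after the data were seen. The cause of each move was not tested.

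In T cells (1.62) the ratio was 1.56 with the stricter cell filter, 1.60 with doublets kept, 1.73 with the stricter gate, 1.51 by cluster, 1.56 without the red cell list, 1.60 without mitochondrial UMIs, 1.69 with other types weighted equally, 1.59 thinned, 1.61 for canonical proteins and 1.59 as a mean over cells. In microglia (0.53) it was 0.40, with all barcodes 0.57, then 0.55, 0.46, 0.49, 0.45, 0.26 and 0.49 in the same order from the stricter gate to thinning, and 0.49 over cells. In oligodendrocytes (-0.85) it was -0.89, with all barcodes -0.82, with doublets kept -0.82, then -0.86, -0.77, -0.82, -0.80, -0.75 and -0.78 from the stricter gate to thinning, -0.84 for canonical proteins and -0.77 over cells. In endothelial cells (0.22) it was 0.17 with the stricter cell filter, 0.25 with the stricter gate, 0.14 by cluster, 0.27 without mitochondrial UMIs, 0.020 thinned and 0.019 over cells. It turned to -0.042 without the red cell list and to -0.017 with equal weights. Leaving out each set gave 1.54 to 1.70, 0.35 to 0.71, -0.87 to -0.82 and 0.21 to 0.22 in the 4 types.

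Members called higher in microglia (8) were 2 with the stricter cell filter, 4 by cluster, 2 without mitochondrial UMIs, 1 with equal weights, 2 thinned, 53 with TMM scaling and 1 at 2-fold, and 8 to 16 leaving out a set. In endothelial cells (2) they were 1 without the red cell list, with equal weights, thinned, with TMM scaling and at 2-fold. The 1 higher in oligodendrocytes became 0 at 2-fold, and the 54 lower became 26 with equal weights, 34 thinned and 17 at 2-fold. Of members called lower, T cells (0) had 0 to 1 leaving out a set, and microglia (0) had 1 by cluster, 1 without the red cell list and 0 to 1 leaving out a set. The 75 higher in T cells stayed within 1.5 times. Ependymal cells had no value with the stricter gate, which left 2 sets without cells, and Rps4y2 had no finite ratio in T cells when thinned. Depth limits rows under about 10 CPM, such as Rps29.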
